A study of Mus musculus with 4 samples.

Results

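Amino acid transporters of 7 solute carrier families were examined in epididymal fat of mice on a high-fat diet. Members were all genes whose symbol begins with Slc1a, Slc3a, Slc6a, Slc7a, Slc36a, Slc38a or Slc43a and a number, whatever their values, and 63 of 18194 measured genes met this rule. Of these 63, 3 symbols end in "os" (Slc7a6os, Slc36a1os and Slc6a19os) and name genes on the opposite strand that are no carriers, which leaves 60 carriers. The Slc6 family also holds carriers of monoamines, taurine and creatine besides those of amino acids.

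Signal was read from 4 Affymetrix mouse arrays hybridised with biotin-labelled material from total RNA of the fat pad. The high-calcium whey group (2 arrays) was fed 1.8% calcium with whey protein isolate, and the standard high-fat group (1 array) was fed 0.4% calcium. All animals were C57BL/6J mice, 9 weeks old at the start, on diets with 60% of energy as fat for 21 weeks, with 10 mice per diet in the feeding study and 2 per diet stated as profiled. The labels do not settle the diet of the remaining array, which entered no comparison and whose values are given beside the others. Because calcium and whey protein changed together, their contributions cannot be told apart. With 1 standard array, a difference between the diets also cannot be told apart from a difference between that sample and the others, and 4 arrays limit the precision.

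Cells take up amino acids through carriers that differ in what drives them. Slc1, Slc6 and Slc38 proteins use the sodium gradient, Slc36 proteins use protons, and Slc43 proteins and most Slc7 proteins work without sodium. Many Slc7 proteins are light chains that reach the membrane only when bound to a heavy chain, Slc3a2 or Slc3a1. In fat cells, amino acid uptake feeds protein synthesis and fatty acid synthesis, and the Slc7a10 protein marks the surface of white adipocytes. Several carrier genes, among them Slc7a11, Slc7a5, Slc3a2, Slc1a4, Slc1a5, Slc38a2 and Slc6a9, are known targets of ATF4, a transcription factor of the amino acid deprivation response.

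ATF4 binds with a C/EBP partner to a composite element, and promoter windows of 3 members that hold it are shown because ATF4 targets are described separately below. The element was searched as TGATGNAA, with TTNCATCA for the other strand, where N is any base. The window ran from 250 bases before to 50 bases after each annotated start (RefSeq, GRCm38.p6), and 46 of the 63 members had one. The element stood in a window of 4 members, or 8.70%, against 4.51% of the 27025 genes with a window. These were Slc7a11, Slc1a4, Slc7a7 and Slc6a21, and a match is a description of letters, not a binding site. The window of Slc6a21, which was under background on the 3 labelled arrays, and a second Slc7a7 window that holds 1 match are not printed. The windows of Slc7a7 overlap, and that match is the same site as the printed match 1 base before the start. Windows of the known ATF4 targets Slc3a2, Slc6a9, Slc38a2 and Slc7a1 held no match, nor did that of Slc7a8. The known targets Slc7a5, Slc1a5 and Slc7a3 had no window. Slc7a7 and Slc6a21 are not in the list of ATF4 targets described below. The sequences below read 5′ to 3′ along the gene, with each match in capitals. They lie on the minus strand, for Slc7a11 at chr3:50443564-50443863, for Slc1a4 at chr11:20332664-20332963 and for Slc7a7 at chr14:54417895-54418194.
Slc7a11: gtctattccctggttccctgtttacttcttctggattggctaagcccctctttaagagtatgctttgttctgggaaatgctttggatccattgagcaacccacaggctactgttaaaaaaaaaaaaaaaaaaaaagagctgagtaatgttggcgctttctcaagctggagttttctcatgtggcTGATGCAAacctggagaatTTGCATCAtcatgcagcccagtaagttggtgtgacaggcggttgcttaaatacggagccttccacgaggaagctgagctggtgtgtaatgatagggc
Slc1a4: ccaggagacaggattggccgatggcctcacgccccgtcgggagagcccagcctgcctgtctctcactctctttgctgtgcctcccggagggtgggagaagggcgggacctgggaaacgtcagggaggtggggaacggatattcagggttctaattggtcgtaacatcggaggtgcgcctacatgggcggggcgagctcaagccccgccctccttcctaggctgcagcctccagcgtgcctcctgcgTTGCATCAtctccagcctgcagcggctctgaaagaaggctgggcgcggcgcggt
Slc7a7: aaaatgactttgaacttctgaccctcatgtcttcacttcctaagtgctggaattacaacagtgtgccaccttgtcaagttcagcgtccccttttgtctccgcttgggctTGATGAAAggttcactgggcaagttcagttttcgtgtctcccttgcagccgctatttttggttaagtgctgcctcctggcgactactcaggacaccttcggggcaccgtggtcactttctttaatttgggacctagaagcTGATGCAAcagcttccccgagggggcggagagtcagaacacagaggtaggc
In Slc7a11 matches began 66 and 47 bases before the start, in Slc1a4 a match began 4 bases before it, and in Slc7a7 matches began 141 bases and 1 base before it.

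A gene was represented by its probe set with the highest mean log2 signal over the 4 arrays, and above background means a signal over that array's median. Of the 63 members 30 were above background on all 4 arrays, 15 on some and 18 on none. All values below are log2 of the deposited linear signal, and how the arrays were scaled is not known here. The median signal of all probe sets was 0.0963 and 0.0628 on the high-calcium arrays, against 0.0624 on the standard array, and it was 0.0585 on the array of open diet. Adipocyte markers were bright on every array: all 10 measured of the 12 listed were above background, with a summed signal of 204.6 and 193.0 on the high-calcium arrays, against 184.5 on the standard array. The label of the tissue as fat was thus met by its markers.

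**Figure D1:**
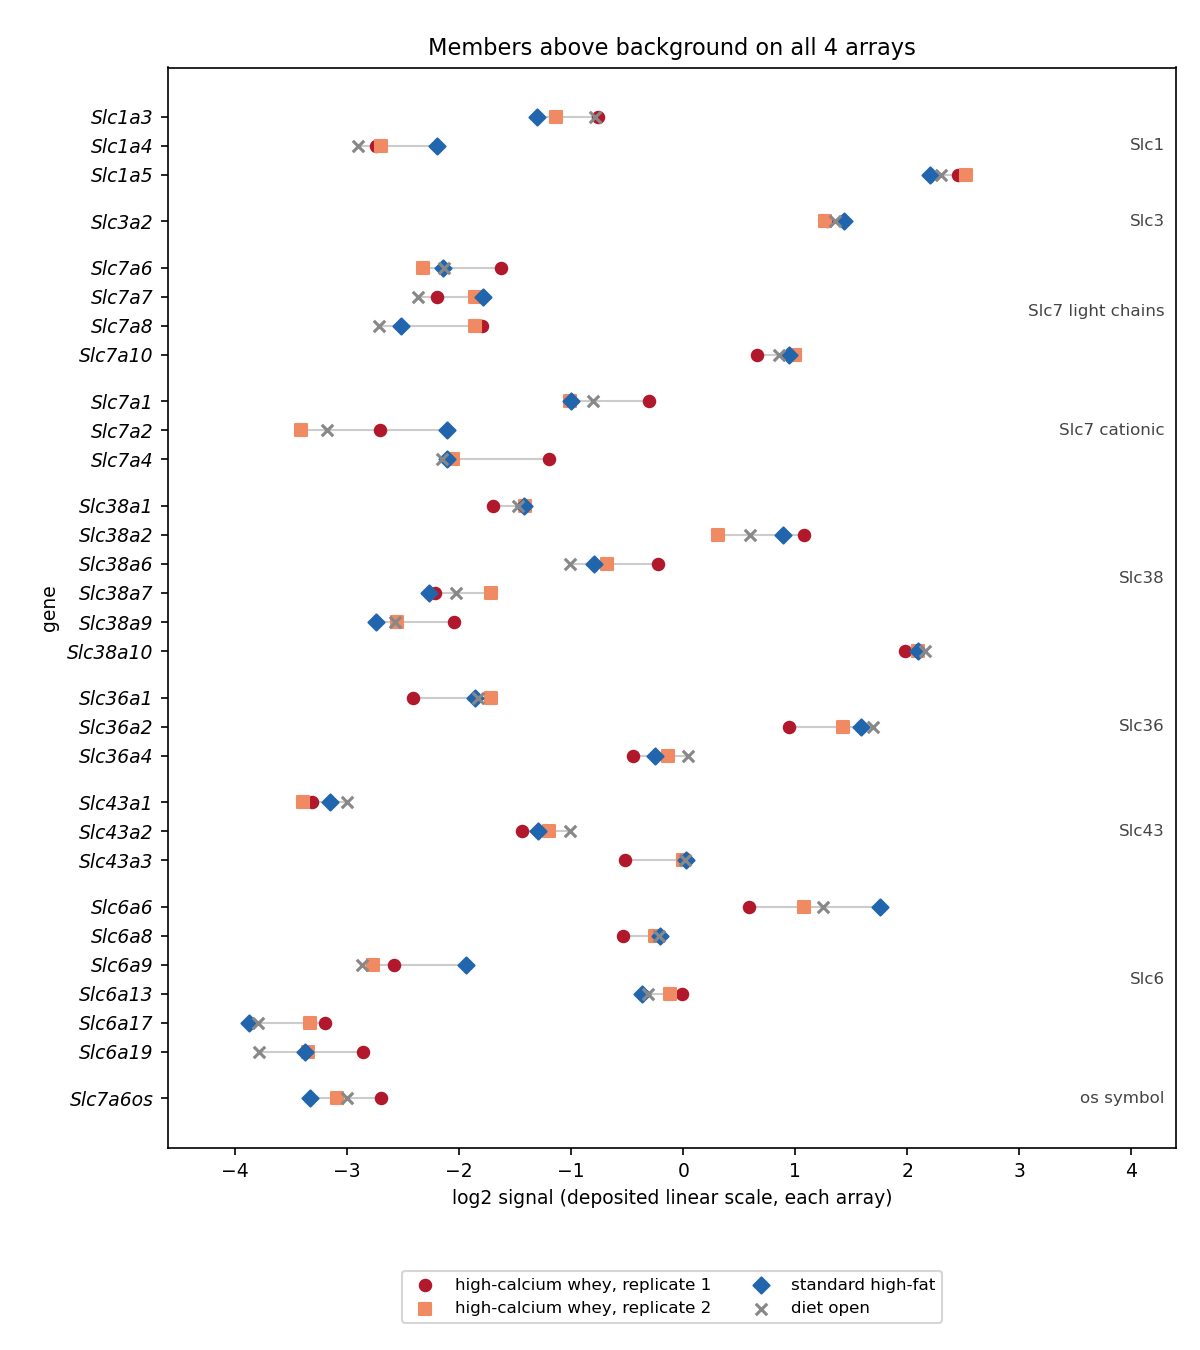
Log2 signal (x axis) of the 30 members above background on all 4 arrays, grouped by family down the page; each symbol is 1 array. Most members lie close together on all 4 arrays. Slc6a6, Slc6a9 and Slc7a2 have the standard array at the high end, as do others, among them Slc1a4 and Slc3a2. Slc7a8 has both high-calcium arrays at the high end, as do others, among them Slc1a5 and Slc6a17.

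Few carriers stood apart from the standard array on both high-calcium arrays. Of the 30 members above background, 3 were lower by 1.5-fold or more on each of the high-calcium arrays, as were 1.12% of the 10463 genes above background. These 3 were Slc6a6, Slc6a9 and Slc7a2. Slc7a8 alone, 1 of 30, was at least 1.5-fold higher on both, where 2.11% of genes were. At any size, 11 of the 30 lay below the standard array on each high-calcium array and 11 above it on each, against 27.1% lower and 35.4% higher of all genes above background. After each array was centred on its median these counts became 13 lower and 5 higher, against 46.7% and 7.97% of genes. Centring lowered the differences of replicate 1 more than those of replicate 2. The log2 medians were -3.38 and -3.99 on these arrays, against -4.00 on the standard array.

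No member passed limma's test between the diets. It called 0 of 63 members and 0 of all 18194 genes (0.0%) at an adjusted p under 0.05. At an unadjusted p under 0.05 there were 5 members, against 4.94% of all genes, and each of these 5 was under background on at least 1 array. None of the 30 members above background was among them, against 0.182% of genes above background. Among the 30 members above background the smallest unadjusted p was 0.138, for Slc6a6, and the adjusted p was 0.9999 for each. When limma was run with a trend and robustly, it called 0 members and 6 of all genes (0.033%). The median SD between the high-calcium arrays was 0.25 for members and 0.17 for all genes above background.

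**Figure D2:**
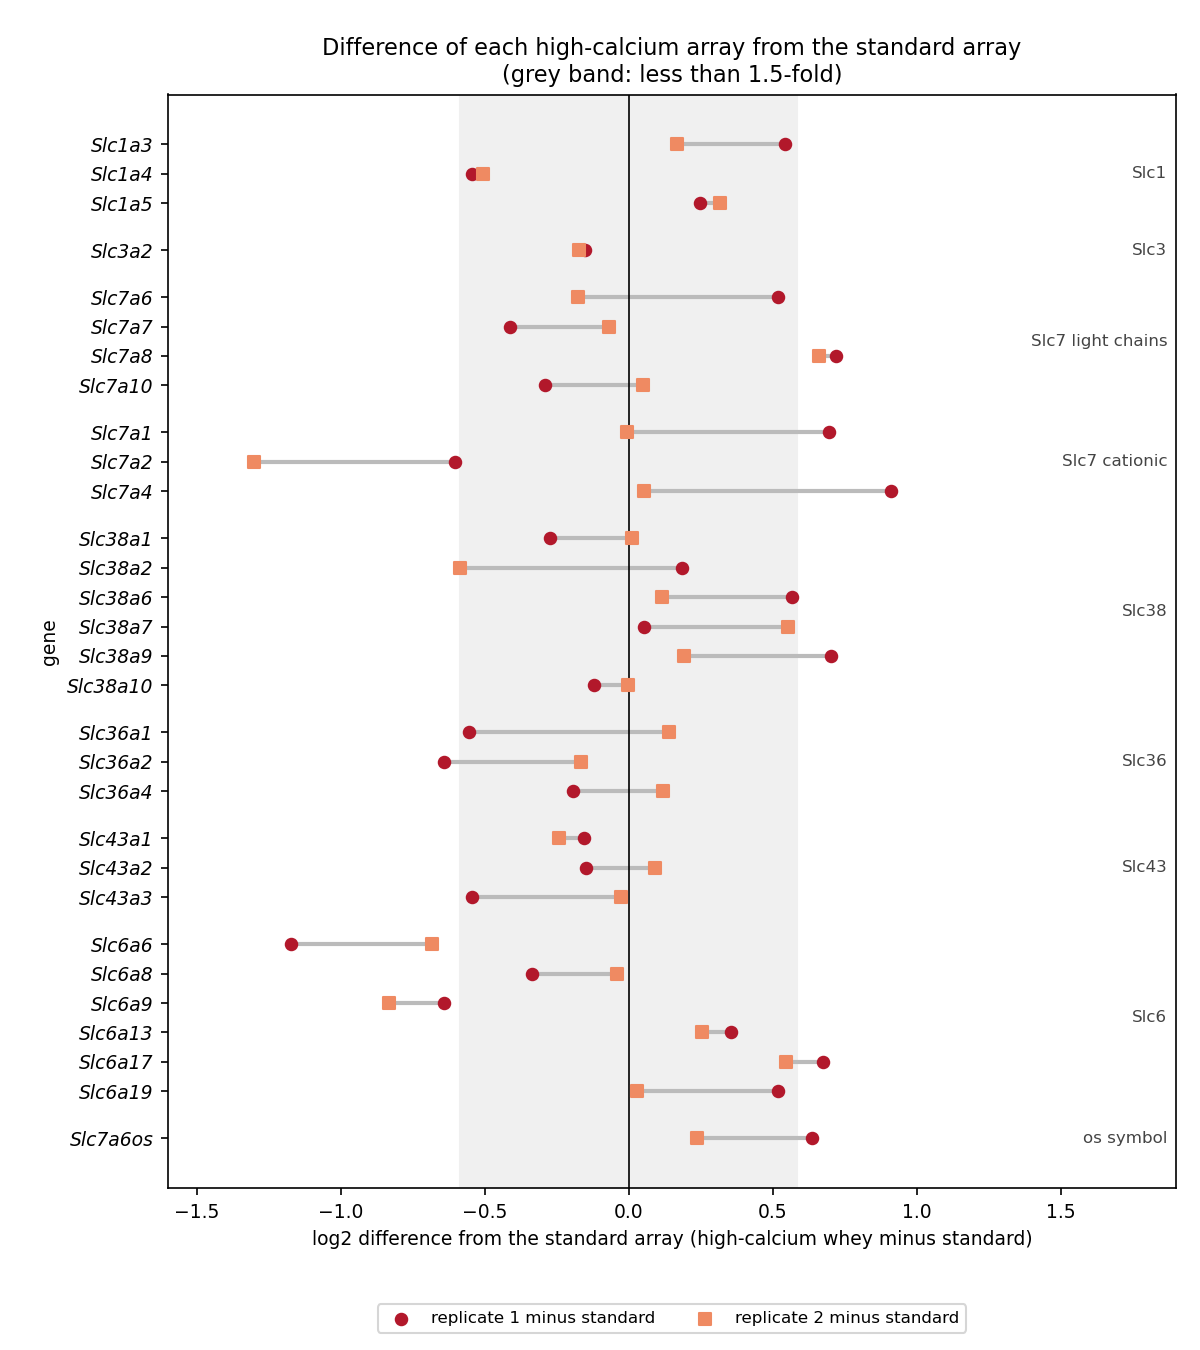
Log2 difference from the standard array (x axis) on high-calcium replicate 1 (circles) and replicate 2 (squares) for the 30 members above background; the grey band covers differences under 1.5-fold. Slc6a6, Slc6a9 and Slc7a2 have both symbols left of the band and Slc7a8 has both right of it, whereas for 8 members the replicates lie on opposite sides of zero.

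Slc6a6, the taurine transporter, was lower on both high-calcium arrays by both of its probe sets above background. It had log2 signals of 0.59 and 1.08 on the high-calcium arrays, against 1.76 on the standard array, and 1.25 on the array of open diet. The standard array was the highest of the 4. Of all genes above background, 27.1% were lower on both high-calcium arrays than on this 1 array. The mean was 0.83 ± 0.35 (SD, n = 2) on the high-calcium diet, a difference of -0.93 (SE 0.42, 95% interval -2.49 to 0.63). It was 2.25-fold lower on replicate 1 and 1.60-fold lower on replicate 2. Its other probe set above background gave -1.21 and -0.61 on the 2 arrays. With a trend and robust estimation Slc6a6 had an unadjusted p of 0.00137 and an adjusted p of 0.679 (limma).

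Slc6a9, the glycine transporter of the same family, gave opposite directions on its 2 probe sets. The brighter one had log2 signals of -2.58 and -2.77 on the high-calcium arrays, against -1.94 on the standard array, and -2.87 on the array of open diet. By this probe set the standard array stood above the rest, with a difference of -0.74 (SE 0.34). The other probe set, also above background on all 4 arrays, had -2.39 and -3.07 on the high-calcium arrays, against -3.55 on the standard array. It put the standard array lowest, with a difference of 0.83, so the direction of Slc6a9 rests on the probe set chosen.

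The other Slc6 members above background carry creatine (Slc6a8), GABA and taurine (Slc6a13), or neutral amino acids at brush borders (Slc6a19) and in neurons (Slc6a17). Slc6a17 had log2 signals of -3.20 and -3.33 on the high-calcium arrays, against -3.87 on the standard array, and -3.80 on the array of open diet. The high-calcium arrays were both higher, at 1.59-fold and 1.46-fold, so replicate 2 fell just short of 1.5-fold. Slc6a13 had -0.01 and -0.12 on the high-calcium arrays, against -0.37 on the standard array and -0.31 on the array of open diet, a difference of 0.30 (SE 0.32). Slc6a8 had -0.54 and -0.25 on the high-calcium arrays, against -0.21 on the standard array and -0.22 on the array of open diet, and only replicate 1 lay apart. For Slc6a19 the mean difference was 0.27 (SE 0.42), replicate 1 giving 0.52 and replicate 2 giving 0.03. Slc6a4, the serotonin carrier, exceeded background on the high-calcium arrays alone, with -3.29 and -3.81 there, against -4.28 on the standard array, at least 1.37-fold higher (limma, adjusted p = 0.9999). The bound for Slc6a4 holds for the mean of the high-calcium arrays, not for each of them. Of the 20 Slc6 carriers measured, 6 were above background on all arrays, 7 on some and 7 on none.

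The cationic carriers of the Slc7 family import arginine and lysine. Slc7a2, an arginine carrier known from activated macrophages and liver, had log2 signals of -2.71 and -3.41 on the high-calcium arrays, against -2.11 on the standard array, and -3.18 on the array of open diet. The standard array was highest, and both high-calcium arrays lay below this 1 array, as they did for 27.1% of all genes above background. The high-calcium mean was -3.06 ± 0.49 (SD, n = 2), a difference of -0.95 (SE 0.50, 95% interval -2.83 to 0.92). It was 1.52-fold lower than the standard array on replicate 1, against 2.47-fold on replicate 2. Its other 3 probe sets were not above background on any array. Slc7a1, the widespread arginine carrier, had -0.31 and -1.01 on the high-calcium arrays, against -1.003 on the standard array, and -0.80 on the array of open diet. By this probe set only replicate 1 was higher. The other Slc7a1 probe set above background on all arrays was higher on both, by 0.70 and 0.56. Slc7a4, a relative of these carriers, had -1.19 on replicate 1 and -2.05 on replicate 2, against -2.11 on the standard array and -2.16 on the array of open diet.

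Among the heteromeric carriers, the heavy chain Slc3a2 lay in a narrow range. It had log2 signals of 1.28 and 1.26 on the high-calcium arrays, against 1.44 on the standard array, and 1.35 on the array of open diet. The difference was -0.16 (SE 0.32, 95% interval -1.34 to 1.02). Slc7a10, the light chain for small neutral amino acids that marks white adipocytes, had 0.66 and 0.996 on the high-calcium arrays, against 0.95 on the standard array, and 0.86 on the array of open diet. The standard array lay between the high-calcium arrays, and the difference was -0.12 (SE 0.37, 95% interval -1.49 to 1.25). These intervals still allow changes of over 2-fold in either direction.

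Slc7a8, the light chain that exchanges neutral amino acids at basolateral membranes, was higher on both high-calcium arrays. It had log2 signals of -1.80 and -1.86 there, against -2.52 on the standard array, and -2.71 on the array of open diet. Both high-calcium arrays lay above the other arrays. Of all genes above background, 35.4% were higher on both than on the standard array. The high-calcium mean was -1.83 ± 0.04 (SD, n = 2), a difference of 0.69 (SE 0.32, 95% interval -0.50 to 1.88), or 1.61-fold. The difference was 0.60 after quantile normalization and 0.37 after centring, and Slc7a8 no longer reached 1.5-fold on both arrays under either. It was measured by 1 probe set.

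The light chains Slc7a6 and Slc7a7 exchange cationic for neutral amino acids. Slc7a6 had log2 signals of -1.63 and -2.32 on the high-calcium arrays, against -2.14 on the standard array, which lay between them, and -2.14 on the array of open diet. Slc7a7 had -2.20 and -1.85 on the high-calcium arrays, against -1.79 on the standard array, and -2.37 on the array of open diet. Neither differed beyond the gap between the replicates. The light chains Slc7a5, which carries large neutral amino acids, and Slc7a11, which exchanges cystine for glutamate, were not above background on any array. Slc7a5 had -5.82 and -6.20 on the high-calcium arrays, against -6.01 on the standard array and -4.39 on the array of open diet. Slc7a11 had -5.92 and -7.98, against -4.68, and -5.21 on the array of open diet. Of 10 light chains, 4 were above background on all arrays and 5 on none, and the remaining one was Slc7a9.

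Slc7a9, the cystine and basic amino acid carrier of kidney and gut brush borders, was high on the standard array alone. It was also above background on the array of open diet, whose log2 median was -4.09. It had log2 signals of -6.63 and -5.64 on the high-calcium arrays, against -0.57 on the standard array, and -3.85 on the array of open diet. It was under background on both high-calcium arrays, so only a bound holds, at least 8.64-fold lower than on the standard array (limma, adjusted p = 0.978). The bound sets the standard signal against the mean of the log2 medians of the high-calcium arrays. It thus holds for the mean of these arrays, not for each of them. Slc3a1, the heavy chain that Slc7a9 binds in kidney, was under background on all 4 arrays, at -3.65 and -4.73 on the high-calcium arrays, against -4.07 on the standard array.

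Slc6a20a, an imino acid carrier of the same brush borders, was above background on the standard array only. It had -6.33 and -7.98 on the high-calcium arrays, against -3.49 on the standard array. The high-calcium mean was at least 1.15-fold lower. No bound held on replicate 1 alone, whose median of -3.38 lay above the standard signal. Slc6a20b, the near copy of Slc6a20a, was under background throughout, and probes for one copy may detect the other. Cltrn, or collectrin, which in mouse kidney brings such Slc6 carriers to the surface and is no member, had -7.47 and -8.12 on the high-calcium arrays, against -3.37 on the standard array and -6.85 on the array of open diet. The standard array was thus the one array above background for Cltrn and Slc6a20a. After each array was centred on its median, limma called Slc7a9 and Slc6a20a among 96 genes, but their high-calcium values lie under background, so that only the bounds above are given.

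Markers of efferent duct and epididymal epithelium also differed between the arrays, in both directions. Of the 18 measured markers, 9 were above background on all arrays. Of those 9, 5 were lower by 1.5-fold or more on each high-calcium array, against 1.12% of genes above background. By log2 signal 10 of the 18 peaked on high-calcium replicate 1 and 1 peaked on replicate 2, whereas 7 had their highest value on the standard array. Those highest on the standard array were Lcn2, Mmp7, Fbp1, Adgrg2, Calml4, Cdh16 and Aqp1. Those highest on replicate 1 included the keratins Krt8, Krt18 and Krt19, the adhesion protein Epcam, and the epididymal genes Spink8 and Defb42. The list was chosen with earlier results of these data known, so its counts are a description and no test. Krt19 was also listed as a mesothelial marker.

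Examples of both kinds were chosen after their values were seen. Fbp1 had log2 signals of -3.19 and -3.72 on the high-calcium arrays, against -0.15 on the standard array. Krt19 had 1.35 and -1.89 on the high-calcium arrays, against -0.63 on the standard array. Spink8 had 4.42 and -6.93 on the high-calcium arrays, against 1.33 on the standard array. Fbp1 was thus high on the standard array alone, whereas Krt19 and Spink8 were highest on replicate 1. Slc7a9 and Slc6a20a were under background on that array.

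The summed signal of the list was 42.3 and 3.72 on the high-calcium arrays, against 18.9 on the standard array, and 4.55 on the array of open diet. Lcn5 and Lcn8 were the 2 listed markers under background on all 4 arrays. The part of such cells in the Slc7a9 and Slc6a20a values was not tested, and in bulk RNA fewer cells of a type and less RNA per cell cannot be told apart.

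**Figure D3:**
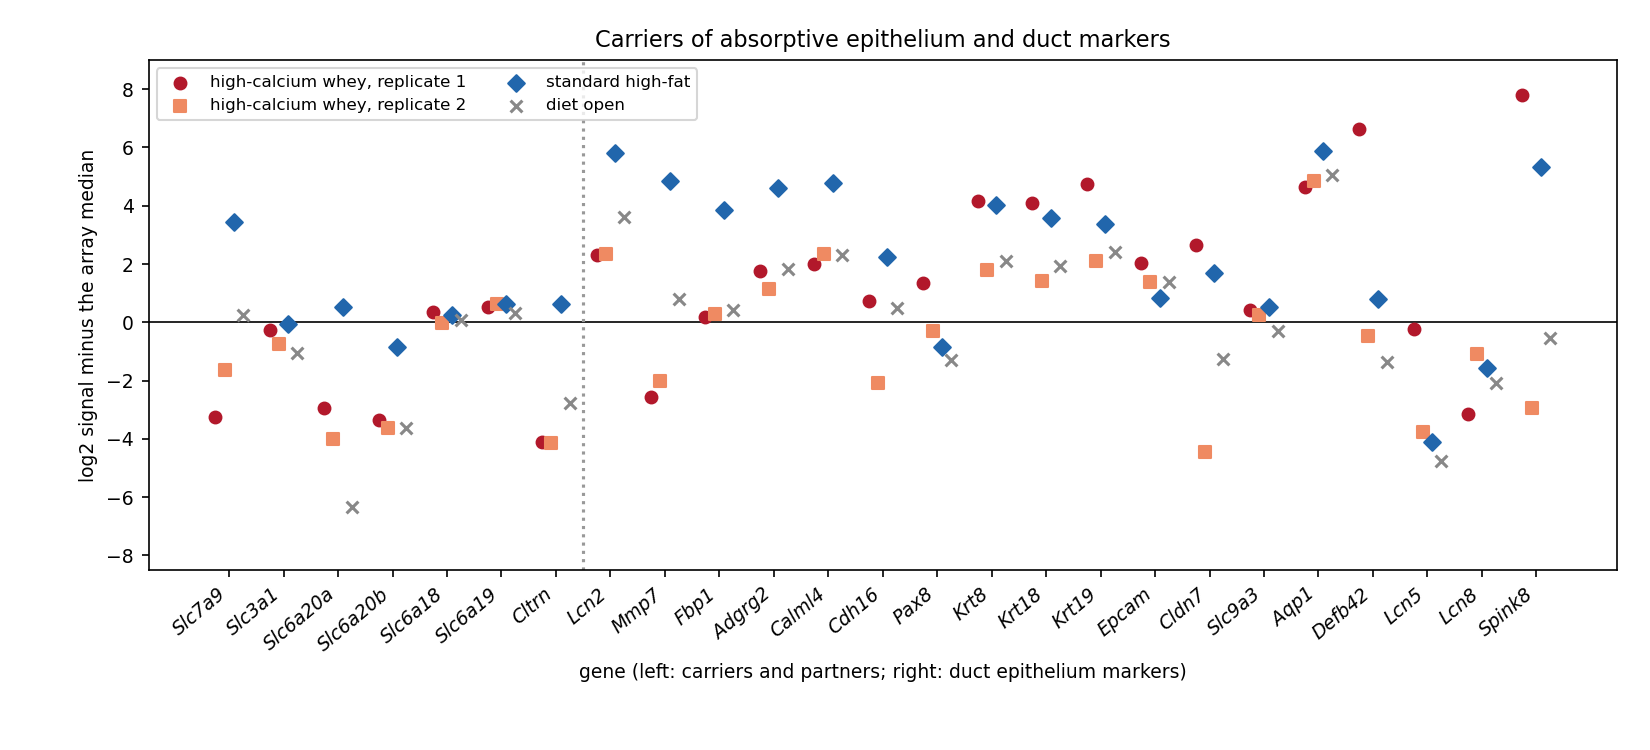
Log2 signal minus the median of the array (y axis), with zero as background, for brush-border carriers and their partners Slc3a1 and Cltrn (left of the dotted line) and all 18 measured duct and epididymal epithelium markers (right). Slc7a9, Slc6a20a and Cltrn are above zero on the standard array and below it on both high-calcium arrays, while on this scale 9 markers peak on high-calcium replicate 1, 1 peaks on replicate 2 and 8 have their highest value on the standard array.

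Slc1 carriers above background were Slc1a3, a glutamate carrier, and the neutral amino acid exchangers Slc1a4 and Slc1a5. Slc1a5, which brings in glutamine, had log2 signals of 2.46 and 2.53 on the high-calcium arrays, against 2.21 on the standard array, and 2.30 on the array of open diet. Both high-calcium arrays were higher, by 0.28 on average (SE 0.32), and a dimmer probe set of the gene gave 1.34. After centring the value of Slc1a5 turned to -0.03. Slc1a4, whose promoter window is shown above, had -2.74 and -2.70 on the high-calcium arrays, against -2.20 on the standard array, and -2.91 on the array of open diet. The standard array was the highest, with a difference of -0.53 (SE 0.32), just under 1.5-fold on each array. Slc1a3 had -0.76 and -1.13 on the high-calcium arrays, against -1.30 on the standard array and -0.79 on the array of open diet, and all 3 of its probe sets above background were higher, by 0.36 to 0.48.

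Slc38 carriers move small neutral amino acids, glutamine among them, with sodium. Slc38a2, the member induced by amino acid shortage, had log2 signals of 1.08 and 0.31 on the high-calcium arrays, against 0.89 on the standard array, and 0.59 on the array of open diet. The standard array lay between the high-calcium arrays, which differed from each other by 1.71-fold. Slc38a1 had -1.70 and -1.41 on the high-calcium arrays, against -1.42 on the standard array and -1.48 on the array of open diet, and Slc38a10 differed by -0.06 (SE 0.32). Slc38a9, the lysosomal arginine sensor of the mTORC1 pathway, had -2.05 and -2.55 on the high-calcium arrays, against -2.75 on the standard array and -2.57 on the array of open diet, but its 4 probe sets above background ran from -0.37 to 0.55. Slc38a7, a lysosomal glutamine carrier, had -2.22 and -1.72 on the high-calcium arrays, against -2.27 on the standard array, with replicate 2 alone clearly higher. Slc38a6 had -0.23 and -0.68, against -0.80, with replicate 1 higher. Slc38a4, a carrier known from liver, was above background on the standard array only. It had -3.64 and -5.07 on the high-calcium arrays, against -3.15 on the standard array and -5.24 on the array of open diet. The high-calcium mean was at least 1.45-fold lower, which does not hold for replicate 1 alone. Slc38a5 was likewise above background on the standard array only, and its bound was under 1-fold.

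No Slc36 or Slc43 carrier was 1.5-fold apart from the standard array on both high-calcium arrays. Slc36a2, a proton-coupled carrier known as a surface marker of brown and beige adipocytes, had log2 signals of 0.95 and 1.42 on the high-calcium arrays, against 1.59 on the standard array, and 1.70 on the array of open diet. Both high-calcium arrays were lower, at 1.56-fold on replicate 1 and 1.12-fold on replicate 2. Slc36a1, a lysosomal carrier, had -2.41 and -1.71 on the high-calcium arrays, against -1.85 on the standard array, which lay between them, and -1.83 on the array of open diet. Slc36a4 had -0.45 and -0.14, against -0.26, and 0.04 on the array of open diet. Slc43a1 and Slc43a2, which carry branched-chain and other large neutral amino acids, differed by -0.20 (SE 0.32) and -0.03 (SE 0.34). Slc43a1 had -3.31 and -3.40 on the high-calcium arrays, against -3.16 on the standard array and -3.00 on the array of open diet. Slc43a2 had -1.44 and -1.20, against -1.29, and -1.01 on the array of open diet, so its standard array lay between the replicates. Slc43a3, a purine nucleobase carrier, had -0.52 and -0.0031 on the high-calcium arrays, against 0.02 on the standard array and on the array of open diet, so only replicate 1 was apart. Slc7a6os, which is no carrier, had -2.70 and -3.10 on the high-calcium arrays, against -3.33 on the standard array and -3.00 on the array of open diet.

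Replicates of the high-calcium diet were not alike for every carrier. Of the 30 members 6 were at least 1.5-fold apart between these arrays, where 18.7% of genes above background were. Slc7a1, Slc7a2, Slc7a4, Slc7a6 and Slc38a2 (5 members, against 13.3% of genes) were higher on replicate 1, by 1.62-fold to 1.81-fold. Slc36a1 (1 member, against 5.4% of genes) was higher on replicate 2, by 1.62-fold. Smooth muscle markers also stood out on replicate 1, with all 10 measured, 7 above background on all arrays, and a summed signal of 71.0 and 12.4 on the high-calcium arrays, against 12.2 on the standard array. The 7 measured B-cell markers, 1 of them above background on all arrays, summed to 2.89 and 0.397, against 0.586. Macrophage markers, all 11 measured above background, summed to 39.2 and 68.1, against 62.3, and were thus lowest on replicate 1. The part of these cell types in the carrier values was not tested.

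**Figure D4:**
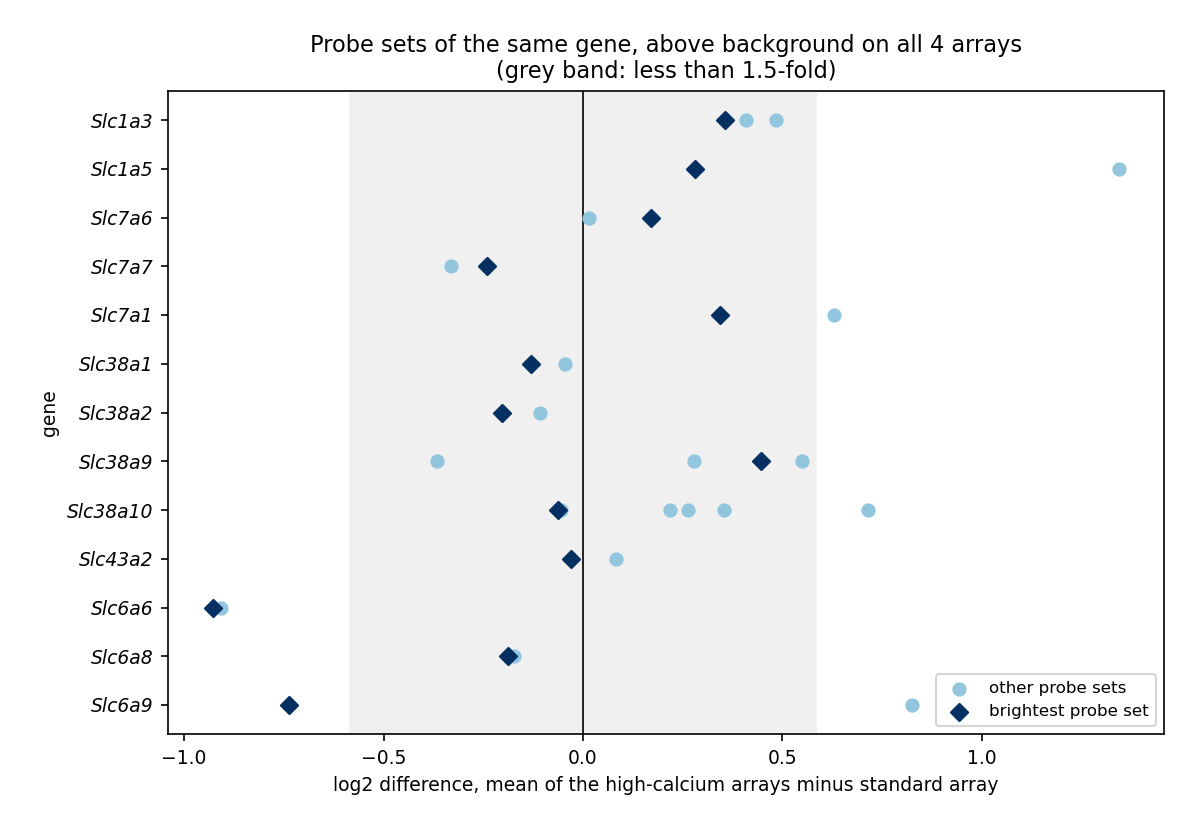
Log2 difference of the high-calcium mean from the standard array (x axis) for each probe set above background on all 4 arrays, for the 13 members with more than 1 such probe set; diamonds mark the brightest probe set, used elsewhere. The 2 probe sets of Slc6a6 coincide near -0.9, whereas those of Slc6a9, Slc38a9, Slc38a10 and Slc43a2 fall on both sides of zero.

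The choice of probe set mattered for several members. The 63 members had 125 probe sets, and 13 members had more than 1 above background on all 4 arrays. In 9 of these 13 all such probe sets had the same sign, and in 4 (Slc6a9, Slc38a9, Slc38a10 and Slc43a2) they did not. For Slc1a5 and Slc7a1 the signs were the same but the sizes were not, at 0.28 and 1.34 for Slc1a5 and at 0.34 and 0.63 for Slc7a1.

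Known ATF4 targets among the carriers did not move in one direction. Of the 9 listed, 6 were above background on all arrays. By the brightest probe set, Slc3a2, Slc1a4 and Slc6a9 were lower on both high-calcium arrays and Slc1a5 was higher on both. Slc7a1 and Slc38a2 were split between the arrays. The other probe sets above background of Slc7a1 and Slc6a9 were higher on both. The median difference of the 6 was -0.18, with 0.02 on replicate 1 and -0.34 on replicate 2. Of 18 ATF4 targets above background that are no carriers, 6 were lower on both and 6 higher on both, with a median of 0.09. Among all genes above background, 27.1% were lower on both and 35.4% higher on both, so a mixed split is not particular to these lists. Neither list had a member past limma's threshold.

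Carriers of amino acids and peptides outside these families numbered 21 measured of 25 symbols listed, with older and newer names of the same gene both listed. Of the 14 above background, 5 were lower on both high-calcium arrays, 3 were higher on both and 0 passed limma's test, with a median of -0.16. Among all genes above background, 27.1% were lower on both and 35.4% higher on both. Slc25a15, the mitochondrial ornithine carrier, was the one of the 14 at least 1.5-fold lower on both, where 1.12% of genes above background were. It had -1.20 and -1.19 on the high-calcium arrays, against -0.51 on the standard array, and -1.13 on the array of open diet. The standard array stood above the other arrays, with a difference of -0.69 (SE 0.32). Slc25a44, the mitochondrial branched-chain amino acid carrier, had -1.86 and -2.36 on the high-calcium arrays, against -1.73 on the standard array.

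The median difference over the 30 carriers and os genes above background was -0.05, against 0.03 over all genes above background. Without probe sets that can share transcripts the median over members was 0.17, against 0.04 over all genes, so the sign of the members' median rests on that choice. It was -0.14 on replicate 1 and 0.02 on replicate 2, against 0.06 and 0.01 for all genes. Other marker lists lay further from zero. Endothelial markers, all 10 above background, had a median of -0.48 and summed signals of 6.78 and 5.99 on the high-calcium arrays, against 9.85 on the standard array. Mesothelial markers, all 8 above background, had a median of 0.81 and summed signals of 6.00 and 2.86, against 2.34.

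**Figure D5:**
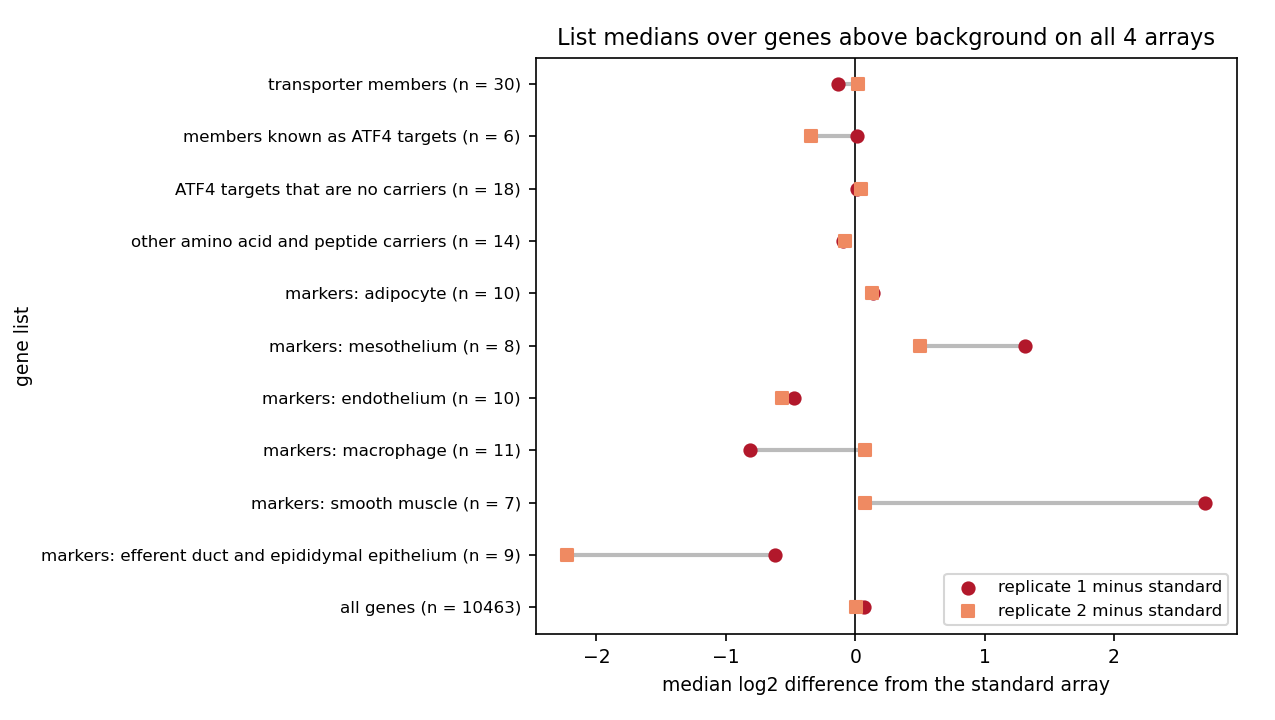
Median log2 difference from the standard array (x axis) on each high-calcium array, over the genes of each list above background on all 4 arrays, with their number in brackets. The transporter members lie near zero on both arrays, as all genes do, while smooth muscle, macrophage and duct markers differ widely between the 2 high-calcium arrays.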

How the data were processed

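The deposited values are intensities, 1 linear signal per probe set and array. The submitters' processing notes name RMA, without a version; the values are not on its log2 scale, and how arrays were scaled is not known here. Values were log2 transformed without an added constant. Gene names came from GEO's platform annotation: 34958 of 45101 had 1 gene symbol, 932 several and 9211 none, and 0 symbols changed on update against RefSeq (34754 matched). Groups came from the labels. Differences (high-calcium minus standard) were fitted over all 18194 genes on the 3 labelled arrays using limma 3.58.1 (lmFit, eBayes; R 4.3.3). Tests were two-sided, p-values were adjusted by Benjamini-Hochberg, and moderation left 2.38 degrees of freedom; the lone standard array was assumed to vary like the others. The procedure was tested on simulated data with the same spread for every gene, smaller than the median SD here. That run does not measure its power in these data. Replicates are labelled as separate samples, and p-values measure the spread between them. Named were all members above background, members with a bound and fixed lists. Members, lists and tests were chosen with earlier results of these data known. Alternatives were other probe set rules, scalings, thresholds, an added constant, limma with a trend, and dropping either high-calcium array. Figures used matplotlib 3.10.9.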

Additional observations from a re-analysis of the deposited data

Results flagged for a closer look

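The array of open diet, which entered no comparison, had 2 members above its background that were under background on all 3 labelled arrays. The share of all genes with this pattern is not given here, so the count is a description and not a result about the carriers. Slc6a21, an Slc6 relative, had a log2 signal of -3.84 there, with -6.09 and -6.54 on the high-calcium arrays, against -6.79 on the standard array. Slc36a3, a proton-coupled carrier, had -3.89 there, with -4.49 and -4.53 on the high-calcium arrays, against -4.37 on the standard array. Both lie close to the median of the array, -4.09, and rest on 1 array.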

How the results depend on the processing

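No paired analysis was run because the labels name no pairs between the diets. Limma called 0 of all genes in 6 of the alternatives run, 6 with a trend and robust estimation and 96 after median centring; members called were 0 except after centring, which called 2, Slc7a9 and Slc6a20a, whose high-calcium values lie under background and allow only a bound. The list median moved to -0.37 after centring, with that of all genes at -0.29. It turned positive without probe sets that can share transcripts (0.17, all genes 0.04), with the mean of probe sets (0.03, all genes 0.06) and with an added constant (0.0051, all genes 0.07), and was -0.14 to 0.02 without each high-calcium array. Members at least 1.5-fold lower on both arrays, 3 in the report, numbered 1 with the mean of probe sets or an added constant, 0 at 2-fold, 9 without a filter and 4 without each high-calcium array in turn, where 1 array a diet leaves no test. Higher members, 1 in the report, numbered 3 with the mean of probe sets, 0 after quantile normalization, after centring, with an added constant or at 2-fold, 2 at 1.3-fold, 6 without a filter, and 1 to 6 without a replicate. Without replicate 2 the 6 were Slc38a9, Slc6a17, Slc7a1, Slc7a4, Slc7a6os and Slc7a8. Members 1.5-fold apart between the high-calcium arrays, 6 in the report, numbered 15 after centring, 14 at 1.3-fold, 0 at 2-fold and 33 without a filter. No share of all genes is given beside these lower, higher and apart counts under the alternatives. They describe the settings and cannot be read as particular to the carriers. Of 35 members followed, 16 changed sign under at least 1 alternative: 9 when a high-calcium array was left out (Slc36a1, Slc36a4, Slc38a1, Slc38a2, Slc38a5, Slc43a2, Slc7a1, Slc7a6 and Slc7a10), and 10 under the other alternatives. With the mean of probe sets those 10 included Slc38a10 (0.37), Slc38a2 (0.0078), Slc43a2 (1.20), Slc6a19 (-0.95) and Slc6a9 (0.044). After centring they were Slc1a5 (-0.035), Slc38a7 (-0.014), Slc6a13 (-0.013), Slc6a19 (-0.042) and Slc7a6 (-0.15). With an added constant they were Slc43a1 (0.013) and Slc43a2 (0.030), and without probe sets that can share transcripts Slc38a10 (0.22). Centring shifts the differences of all genes on an array alike, but those of replicate 1 by more than those of replicate 2. The other causes were not tested. Signal near background limits the dim members.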
